A study of Mus musculus with 2 samples.

Results

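Classical monocytes of the adrenal gland were described here as 258 cells, 172 from a female and 86 from a male library, among 6319 barcodes that passed the filters (3817 female, 2502 male) of 6648 deposited. They were chosen on raw counts of unique molecular identifiers (UMIs, each standing for 1 captured transcript). A barcode needed 200 or more genes and at most 15% mitochondrial UMIs. Gates then removed macrophages (C1qa + C1qb + C1qc above 2, or Retnla of 5 or more), B cells (any Cd79a), T cells (any Cd3e), NK cells (any Ncr1), plasmacytoid dendritic cells (any Siglech) and neutrophils (S100a8 + S100a9 of 20 or more), and kept cells with 2 or more UMIs of Lyz2 + Csf1r. Among the 602 cells that passed the gates, the members had a classical sum, Chil3 + Ly6c2 + Vcan + F13a1, of 2 or more that was at least as large as a nonclassical sum, Ace + Treml4 + Adgre4 + Cd300e. Cells with a nonclassical sum of 2 or more that exceeded the classical sum, 64 in each library, served for comparison and are called nonclassical. The remaining 216 cells that passed the gates (127 female, 89 male) had neither sum in lead at that size.

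The study set female against male adrenal glands. Live CD45+ cells, that is blood-derived cells carrying the pan-leukocyte antigen, were sorted by flow cytometry from C57Bl/6 mice aged 7 weeks, for which no treatment or engineered allele is named, and profiled by 10x Genomics 3′ single-cell RNA sequencing. Each sex was 1 library, and the number of mice pooled in each is not given in the sources used here. Sex and library therefore cannot be told apart, cells of 1 library are not replicates, and no test was made. Intervals in brackets are 95% and cover counting error only.

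Monocytes are made in the bone marrow and circulate in the blood. The classical kind (Ly6C-high in the mouse) leaves the blood through the chemokine receptor CCR2 and can mature in tissues into macrophages or into cells that resemble dendritic cells. The nonclassical kind (Ly6C-low) patrols the vessel wall, depends on the nuclear receptor NR4A1 and is thought to derive largely from the classical kind.

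The cells were chosen by the transcripts of 8 genes, and the promoters of the leading 2 of each sum are shown because these genes define the classes compared throughout. Chil3 (Ym1, a chitinase-like secreted protein, ENSMUSG00000040809, chr3:106147554-106167564, minus strand) and Ly6c2 (a subunit of the Ly6C surface antigen, ENSMUSG00000022584, chr15:75108158-75111970, minus strand) led the classical sum. Ace (angiotensin converting enzyme, ENSMUSG00000020681, chr11:105967945-105989964, plus strand) and Adgre4 (an adhesion G protein-coupled receptor, ENSMUSG00000032915, chr17:55749984-55853662, plus strand) led the nonclassical sum. Gene positions are on GRCm38, from GENCODE M21. The promoters below are from RefSeq on GRCm38.p6 and run 5′ to 3′ on the strand of the gene, from 250 bases before to 50 bases after its start. Capitals mark GAGGAAG or its reverse complement CTTCCTC, the core letters of the site known for PU.1 (encoded by Spi1), the transcription factor that directs the myeloid lineage.
Chil3, chr3:106167515-106167814, minus strand: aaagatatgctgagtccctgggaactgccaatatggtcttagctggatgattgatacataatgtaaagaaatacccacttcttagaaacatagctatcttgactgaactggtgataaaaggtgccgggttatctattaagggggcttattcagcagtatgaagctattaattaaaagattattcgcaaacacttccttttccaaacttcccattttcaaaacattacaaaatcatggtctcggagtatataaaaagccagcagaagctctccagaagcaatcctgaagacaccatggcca
Ly6c2, chr15:75111922-75112221, minus strand: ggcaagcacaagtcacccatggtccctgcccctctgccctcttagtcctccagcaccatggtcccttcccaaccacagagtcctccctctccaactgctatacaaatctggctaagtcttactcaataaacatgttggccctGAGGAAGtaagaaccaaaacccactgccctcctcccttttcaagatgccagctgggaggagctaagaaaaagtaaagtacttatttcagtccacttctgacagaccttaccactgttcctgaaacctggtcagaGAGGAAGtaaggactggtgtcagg
Ace, chr11:105967698-105967997, plus strand: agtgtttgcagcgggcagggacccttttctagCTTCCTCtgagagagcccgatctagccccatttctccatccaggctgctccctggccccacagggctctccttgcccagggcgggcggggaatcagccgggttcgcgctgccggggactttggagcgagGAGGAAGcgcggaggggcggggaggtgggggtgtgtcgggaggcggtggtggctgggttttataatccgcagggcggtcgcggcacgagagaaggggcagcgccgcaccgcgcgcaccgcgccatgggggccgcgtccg
Adgre4, chr17:55749734-55750033, plus strand: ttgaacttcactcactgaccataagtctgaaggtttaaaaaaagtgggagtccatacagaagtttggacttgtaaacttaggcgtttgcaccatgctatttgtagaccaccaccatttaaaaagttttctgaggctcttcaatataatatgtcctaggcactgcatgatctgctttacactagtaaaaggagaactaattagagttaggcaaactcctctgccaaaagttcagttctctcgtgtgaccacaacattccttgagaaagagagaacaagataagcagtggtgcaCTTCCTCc

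The 7 letters, on either strand, stood in 6 of the 11 promoters that the table lists for the 8 rule genes (those of Ly6c2, F13a1, Ace and Adgre4, with overlapping windows for Ly6c2) and in 13.6% of all 32851 promoters of the same length in the table. Chil3 had none in this window. Spi1 itself stood at 470 CPM (UMIs of the gene per 1000000 UMIs of the class) in female and at 545 CPM in male classical cells.

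Of the 5 markers of the label, Chil3, Ly6c2 and Vcan were used by the rule, which leaves Ccr2 and Plac8 outside it. The members were chosen with earlier results of these data known, so these 2 are not an independent check. Summed over the 5 markers, the members stood at 10060 CPM female and 10056 CPM male. Nonclassical cells stood at 4055 and 4072 CPM. The other cells that passed the gates stood at 1469 and 1618 CPM, with a UMI in 86.6% and 84.3% of them. Ccr2, the receptor for the chemokine CCL2, which the rule did not use, had a UMI in 84.3% of the female and 76.7% of the male members, against 4.84% and 2.73% of B cells, a type that should lack it (median depth 3489 and 3624.5 UMIs in the members, 2307 and 1807 in B cells). With every cell drawn down to 1000 UMIs (5 female and 3 male members below that depth left out) the Ccr2 shares were 56.9% [49.0, 64.5] and 62.7% [51.3, 73.0] in the members and 2.18% and 1.65% in B cells. Plac8, also outside the rule, had a UMI in 86.8% and 85.5% of the members after the same draw, but in 51.7% and 43.2% of B cells, so it was not particular to monocytes in these libraries. Vcan, the proteoglycan versican, was sparse although in the rule, with 21 female and 25 male UMIs and a UMI in only 9.30% and 12.8% of the members before the draw.

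Markers of other cells ranged in the members from a list at 0 or 1 UMI to lists read in most cells. The fibroblast list gave 1 UMI in the female and 0 in the male members, and the mast cell list also 1 and 0. The T cell list gave 19 and 28 UMIs with Cd4 at 0 in both libraries, and the NK cell list 80 and 58 with Gata3 at 0, but 1 male cell held 22 of the T cell UMIs and 1 held 29 of the NK cell UMIs, and the neutrophil list 60 and 45 UMIs with Camp and Ngp at 0. The B cell list, which does not include the gate gene Cd79a, summed to 222 UMIs (340 CPM) and 91 UMIs (270 CPM) in 59.9% and 52.3% of the members, a level of the same order as in macrophages (375 and 353 CPM) and far below the 42625 and 42055 CPM of B cells. The plasmacytoid dendritic cell list had 250 and 142 UMIs (382 and 421 CPM) in 60.5% and 65.1% of the members, of which 186 and 104 were of Bst2, an interferon-inducible gene of many cells, with Ccr9, Klk1 and Cox6a2 at 0. The dendritic cell list had 53 and 25 UMIs in 12.8% and 11.6% of the members, with Clec9a and Ccr7 at 0, and the resident macrophage list 87 and 66 UMIs in 26.7% and 39.5%. Values without the members that held a UMI of Cd3d, Cd3g, Trac, Cd79b, Ms4a1, Klrb1c, Flt3, Cpa3 or Cdh5, markers of other lineages, and without those that held a C1q UMI, were computed as alternatives. Neither alternative used Bst2. The endothelial list was uneven, with 42 female and 151 male UMIs, and 1 female and 3 male members held 3 or more of them, up to 38 and 56 in a cell. Those 4 cells were kept among the members. No member shared a barcode with the other library, Xist was read in 62.8% of the female and 0 of the male members, and Y-linked genes in 0 of the female and 34.9% of the male members.

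The classical sum was built from several genes in most members. Its median was 10.5 UMIs in the female library (range 2 to 150) and 13.5 in the male (2 to 58), and the nonclassical sum had a median of 0 and 1. Chil3 led the sum in 84 female and 45 male cells, Ly6c2 in 59 and 28, F13a1 (coagulation factor XIII, A chain) in 17 and 8, and Vcan in none. Only 1 of the 4 genes had a UMI in 22.7% of the female and 18.6% of the male members, and all others had 2 or more. A nonclassical sum of 2 or more was found beside the classical one in 39 female and 28 male members, of which 2 and 2 had equal sums.

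**Figure D1:**
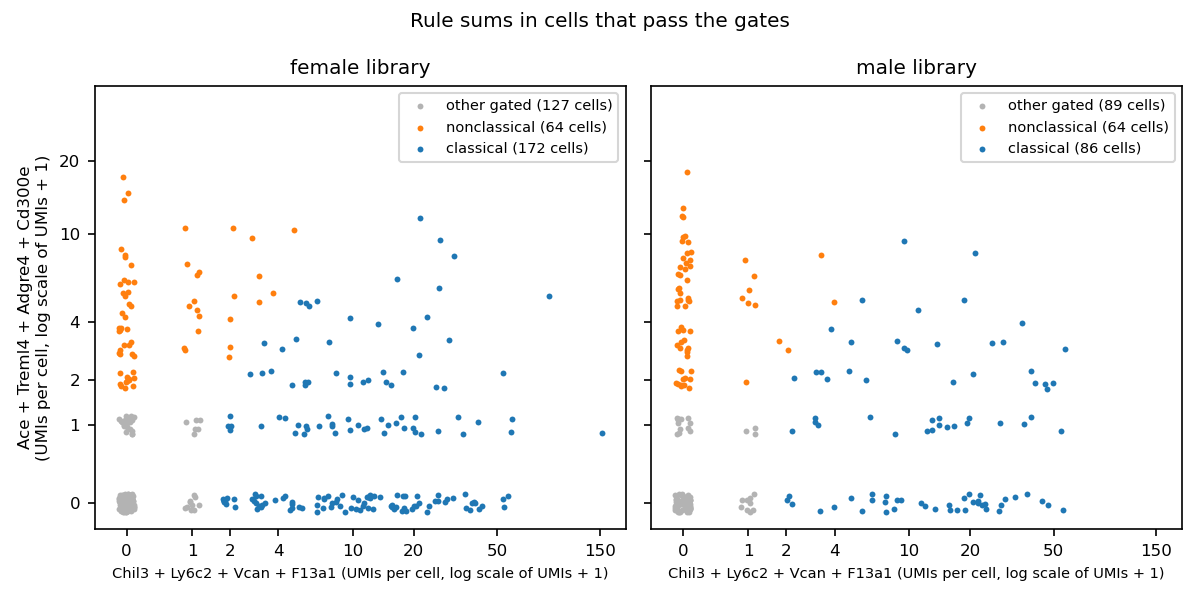
Each point is 1 cell that passed the gates, placed by its classical sum (x axis) and nonclassical sum (y axis), both in UMIs on a log scale of UMIs + 1 with a small random offset, with the female library on the left and the male on the right. Of the members (blue), 94 of 172 female and 39 of 86 male cells lie on the row of a nonclassical sum of 0, and the highest nonclassical sum of a member is 11.

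Cells near the threshold had more Cd74 and less Hp than the members with the highest classical sums. The 14 female cells with a classical sum of exactly 2 had 8071 CPM of Cd74, the invariant chain of MHC class II, and 2228 CPM of Plac8, and the 16 female cells just outside (a sum of 1, nonclassical sum of 0 or 1) had 9602 and 1816 CPM. The 5 male cells with a sum of 2 had 10027 and 6077 CPM, and the 12 just outside 15102 and 842 CPM. In the members with a sum of 20 or more (43 female, 31 male) Cd74 stood at 2568 and 1846 CPM and Plac8 at 5448 and 4984 CPM. With a sum of 2 or 3 Plac8 was at 2573 CPM [2263, 2914] female and 3825 CPM [3116, 4648] male, below those levels in both libraries, so the high male value at a sum of exactly 2 rests on 5 cells. Haptoglobin (Hp) went from 135 and 227 CPM in members with a sum of 2 or 3 to 443 and 424 CPM in those with 20 or more. Median depth also differed along this range, from 2281 and 1783 UMIs to 4548 and 4880 UMIs, and its part in these differences was not tested.

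Members made up 4.51% [3.87, 5.21] of the filtered female barcodes and 3.44% [2.76, 4.23] of the male, a difference of 1.07 percentage points [0.07, 2.02]. Nonclassical cells were 1.68% [1.29, 2.14] and 2.56% [1.98, 3.25]. Of both monocyte kinds together, the classical kind was 72.9% [66.7, 78.4] in the female and 57.3% [49.0, 65.4] in the male library, 15.5 points apart [5.83, 25.1]. These intervals leave out the spread between mice, which is not known, so the values compare 2 libraries and not the sexes. The interval of the difference in share of barcodes included 0 when a classical sum of 4 or more was required ([-0.18, 1.63]) and when cells with UMIs of other lineages were left out ([-0.29, 1.49], with shares of 3.54% and 2.92%). With no C1q UMI allowed the members' share fell to 2.96% in the female library and 1.96% in the male. Classical cells were deeper than nonclassical cells (median 1623.5 UMIs female, 2383 male) and had a lower mitochondrial share (median 1.43% and 1.01%, against 3.20% and 2.01%). With the mitochondrial ceiling at 1.2%, which left 327 female and 359 male barcodes, the classical share of both kinds was 87.3% and 81.7%, and the interval of the difference included 0 (5.68 points [-6.29, 18.6]).

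Fibronectin and Ccr2 were among the genes higher in classical than in nonclassical cells, and Itgal and Spn among the lower ones. Since the rule chose both classes by this contrast, the values are a description. Among 1641 genes with 50 or more UMIs over both classes in each library, 35 were at least 2-fold higher in classical cells in both libraries (2.13%) and 54 were at 0.5 or less in both (3.29%). These counts were 33 and 32 at a mitochondrial ceiling of 5%, 23 and 24 in cells with no C1q UMI, 14 and 7 at a ceiling of 1.2%, and 14 and 6 among genes with 200 or more UMIs. The ranking that chose the genes named next used the interval bound nearest 1 in the less extreme library and left out the rule and gate genes.

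Fibronectin (Fn1, a matrix glycoprotein) stood first, at 1348 CPM [1260, 1440] in female and 1785 CPM [1645, 1933] in male classical cells and 84.2 and 97.8 CPM in nonclassical cells, a ratio of 16.01 [9.12, 31.1] and 18.2 [11.6, 30.5]. Also higher in classical cells of each library were Capg (an actin-capping protein, 11.1-fold and 5.76-fold), Lpl (lipoprotein lipase, 17.4-fold and 5.11-fold) and Wfdc17 (a small secreted protease inhibitor-like protein, 7.55-fold and 2.94-fold).

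Ccr2 was at 1311 CPM [1224, 1402] and 1536 CPM [1406, 1674] in classical cells and 274 and 592 CPM in nonclassical cells, 4.79-fold [3.48, 6.79] and 2.59-fold [2.12, 3.20]. S100a6 (a calcium-binding protein) was 2.53-fold and 2.39-fold, the chemokine Ccl9 2.79-fold and 2.78-fold, Hp 3.27-fold and 5.34-fold, and Slfn1 (a Schlafen family member) 6.36-fold and 3.84-fold.

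Of the 10 genes furthest in the other direction, 6 (Eno3, Pglyrp1, Ear2, Spn, Cd36 and Itgal) were in the list of nonclassical genes and 4 (Slc12a2, Smc6, Hfe and Grk3) were not. Slc12a2, a sodium-potassium-chloride cotransporter, had 12.2 and 11.9 CPM (8 and 4 UMIs) in classical and 379 and 329 CPM in nonclassical cells, ratios of 0.0323 and 0.036. Spn (CD43, the sialophorin commonly used to sort nonclassical monocytes) stood at 71.9 and 71.2 CPM against 554 and 350 CPM. Itgal (the alpha chain of the integrin LFA-1, which holds these cells to the endothelium) stood at 494 and 634 CPM against 2224 and 2090 CPM. Eno3 (muscle enolase), Pglyrp1 (a peptidoglycan recognition protein), Ear2 (an eosinophil-associated ribonuclease), Cd36 (a scavenger receptor for lipids), Smc6, Hfe and Grk3 had ratios from 0.0727 to 0.273 in the female and 0.118 to 0.23 in the male library.

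**Figure D2:**
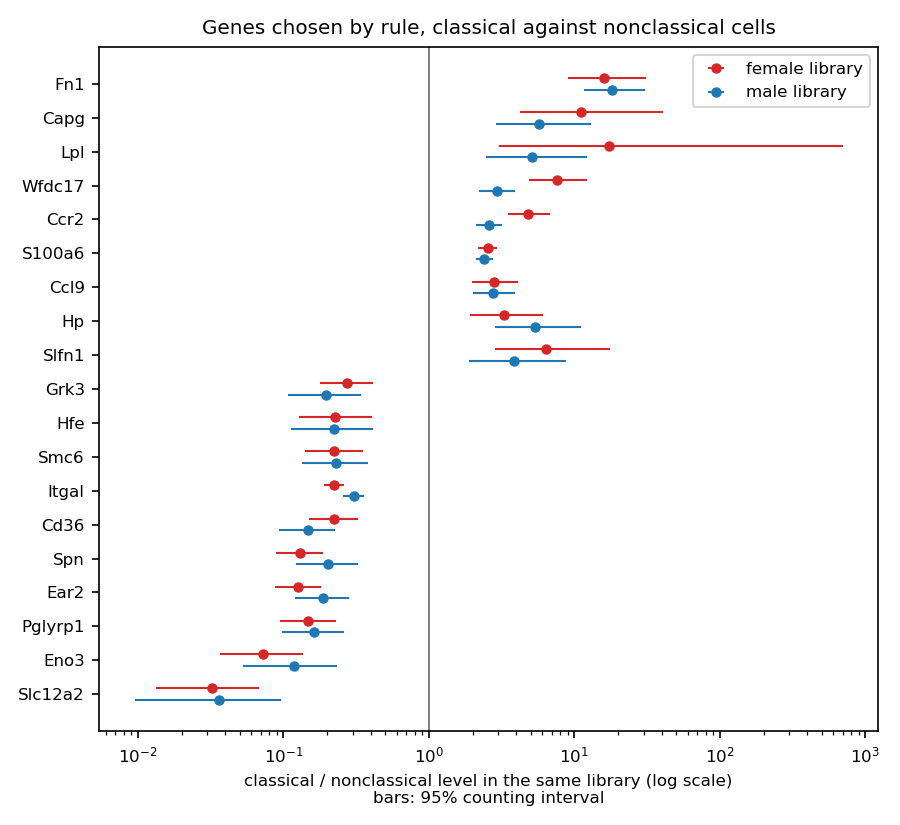
The x axis (log scale) is the CPM in classical cells over that in nonclassical cells of the same library for genes chosen by rule. Points are ratios of summed UMIs, bars their 95% counting intervals (female red, male blue), and each gene has both points on the same side of 1, from 0.0323 for Slc12a2 to 18.2 for Fn1.

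Of the list of classical monocyte genes outside the rule (19 genes, 14 with enough UMIs), 6 were 2-fold or more higher in classical cells in both libraries and 1, the tetraspanin Tspan13, was at 0.5 or less (0.442 and 0.427). At the 1.2% mitochondrial ceiling the female ratio of Tspan13 was 1.03 [0.321, 5.23]. The median log2 ratio of the list was 0.87 in the female and 0.81 in the male library, against -0.03 and -0.02 over all genes. Besides Fn1, Ccr2 and Hp the 6 included Mgst1, a glutathione transferase (2.33-fold and 3.54-fold), and Ms4a4c, a tetraspan membrane protein (3.20-fold and 2.33-fold). Plac8, although a marker in the label, was 1.48-fold and 1.33-fold higher. Of the nonclassical list (17 genes, 14 with enough UMIs), 8 were at 0.5 or less in both and none at 2 or more, with medians of -1.97 and -1.54. The lists were drawn up with earlier results of these data known.

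Among chemokine receptors, Cx3cr1 (the fractalkine receptor, whose span overlaps other genes on the same strand) was at 388 and 344 CPM in classical and 631 and 427 CPM in nonclassical cells. Cxcr4, which retains leukocytes in the bone marrow, was at 234 and 184 CPM against 526 and 335 CPM. S1pr5, a sphingosine phosphate receptor for egress, had 18 and 8 UMIs (27.5 and 23.7 CPM) against 112 and 144 CPM. Cxcr4 and S1pr5 were lower, and Ccr2 higher, in classical cells of both libraries, while the male interval of Cx3cr1 included 1 (ratio 0.615 [0.482, 0.792] female and 0.805 [0.602, 1.08] male). Ccr7, the receptor for entry into lymphatics, had no UMI in either kind, which allows up to 3 UMIs per library.

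Of 11 adhesion genes with enough UMIs, Itgal, Spn and the tetraspanin Cd9 (0.169 and 0.337) were at 0.5 or less in both libraries, against 3.29% of all genes. Another 1 was 2-fold or more higher in both, against 2.13% of all genes. Selplg, which encodes the P-selectin ligand, differed little, with ratios of 0.899 [0.67, 1.22] and 1.04 [0.774, 1.42]. Itga4, the integrin chain that binds VCAM-1, was at 0.375 and 0.678, and its partner Itgb7 at 1.61 and 1.91.

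Of 15 transcription factors with enough UMIs, 1 (Cebpa) was 2-fold or more higher in classical cells in both libraries and 1 (Pou2f2) was at 0.5 or less in both, against 2.13% and 3.29% of all genes, and the median log2 ratios were -0.56 and -0.06. Nr4a1 and Pou2f2 are also in the nonclassical list. Cebpa, a C/EBP factor of early myeloid cells, was at 142 CPM [115, 174] and 205 CPM [159, 259] in classical and 35.1 and 51.5 CPM in nonclassical cells, 4.06-fold [1.68, 12.8] and 3.97-fold [2.04, 8.65]. Nr4a1, on which nonclassical monocytes depend, was at 294 and 451 CPM against 996 and 855 CPM. Pou2f2 (Oct-2) had a ratio of 0.377 in both libraries and Klf4 of 0.326 and 0.517. Irf8 stood at 1.55 and 1.39, with a male interval that included 1 [0.946, 2.07]. Tcf7l2 had 9 and 6 UMIs in classical cells, a ratio of 0.0755 and 0.102. Cebpb, which supports nonclassical survival, was high in both kinds and lower in the classical one (1926 and 2179 CPM against 3858 and 2893 CPM).

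**Figure D3:**
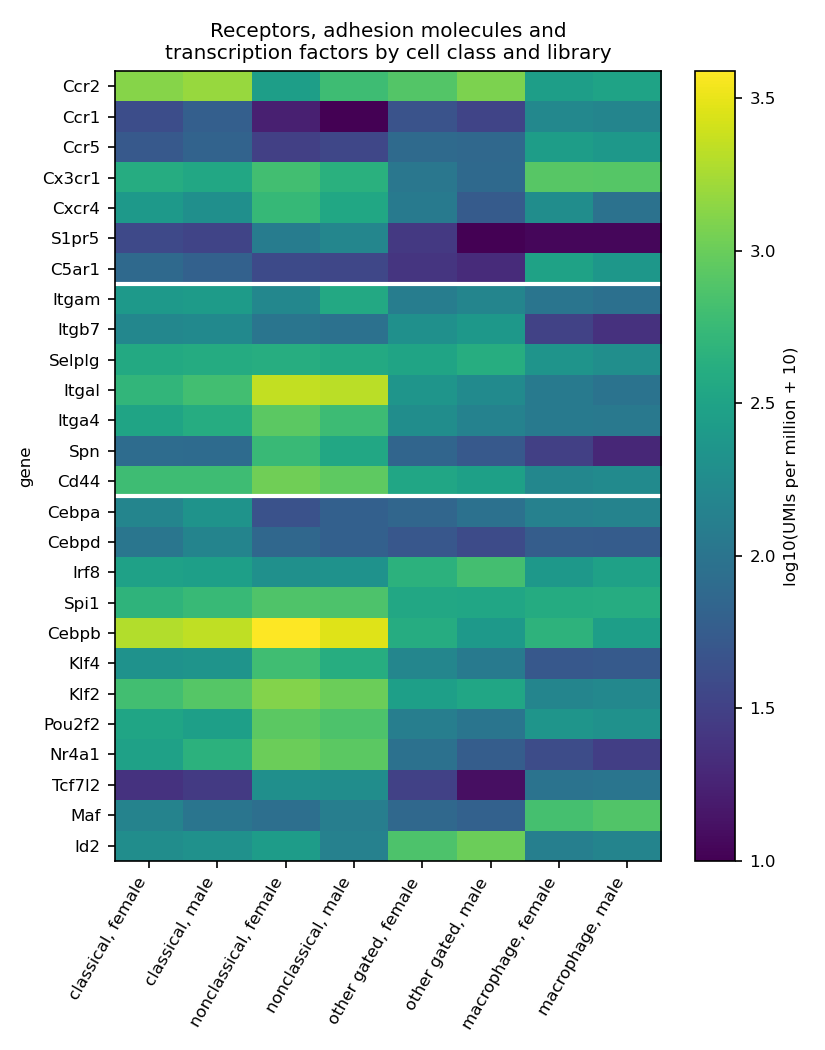
Colours give log10(CPM + 10) for receptors, adhesion molecules and transcription factors (rows, separated by white lines) in 4 cell classes of each library (columns); macrophages are cells with 10 or more C1q UMIs. The classical columns are the brightest for Ccr2, the nonclassical ones for Itgal, Spn and Nr4a1, and the macrophage columns for Maf.

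Of 8 S100 and calcium-binding genes with enough UMIs, 3 (S100a6, S100a10 and Anxa1) were 2-fold or more higher in classical cells in both libraries and none at 0.5 or less, against 2.13% and 3.29% of all genes, with medians of 1.23 and 0.96 on the log2 scale. S100a4, not among the 3, was at 3480 and 3303 CPM against 1557 and 1714 CPM (2.23-fold and 1.93-fold), and S100a10 at 728 and 611 CPM against 112 and 293 CPM (6.49-fold and 2.08-fold). Annexin A1 (Anxa1), a regulator of leukocyte entry, was 2.99-fold and 2.38-fold. At the 1.2% mitochondrial ceiling its male ratio was 0.987 [0.448, 2.47].

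Some interferon-stimulated genes were also higher in classical cells. Isg15, a ubiquitin-like modifier, was at 177 and 237 CPM against 56.1 and 66.9 CPM (3.16-fold and 3.54-fold), and Oasl2 at 153 and 151 CPM against 42.1 and 61.8 CPM (3.63-fold and 2.45-fold). Of the 10 genes of the list with enough UMIs these 2 were at 2-fold or more in both libraries and none at 0.5 or less, against 2.13% and 3.29% of all genes, with medians of 0.86 and 0.50. Irf7, the factor that amplifies the interferon response, was 2.78-fold and 1.94-fold, while Ly6e was at 0.914 and 1.10.

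Granule genes of the neutrophil kind gave low but uneven signals. Cd177, a neutrophil surface protein, had 48 female and 24 male UMIs in classical cells against 0 and 1 in nonclassical cells, in the female library at least 3.49-fold higher (3 UMIs per library taken as the floor) and in the male 13.8-fold [2.25, 568]. Mmp8 (neutrophil collagenase) had 28 and 23 UMIs and Prtn3 (proteinase 3) 10 and 5. Elane, Ctsg, Camp and Ngp, made by granulocyte precursors, had no UMI in the members of either library. B cells had no UMI of Cd177, Mmp8 or Prtn3 after the draw.

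MHC class II genes, which the rule did not use, separated the members among themselves. The summed level of Cd74, H2-Eb1, H2-Ab1 and H2-Aa, which present peptides to CD4+ T cells, had a median of 1 UMI per 1000 in the classical cells of each library (167 and 83 cells). It was 1 and 2 in nonclassical cells, 38.5 and 43 in the other cells that passed the gates, and 33 and 50 in macrophages. Both kinds had a tail above the median. In the classical kind 22 female members (13.2% [8.44, 19.3]) and 12 male members (14.46% [7.70, 23.9]) lay above 10 per 1000 and held 77.5% and 77.0% of these UMIs. In the nonclassical kind the shares above 10 were as large or larger, 15.7% [7.02, 28.6] and 25.8% [15.5, 38.5]. With members holding any C1q UMI left out, 8.18% of the female and 14.9% of the male members lay above 10. With the highest doublet scores removed, 20 of 165 female (12.1%) and 9 of 78 male members (11.5%) did. B cells, which make these transcripts, had a median of 20 and 23.

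**Figure D4:**
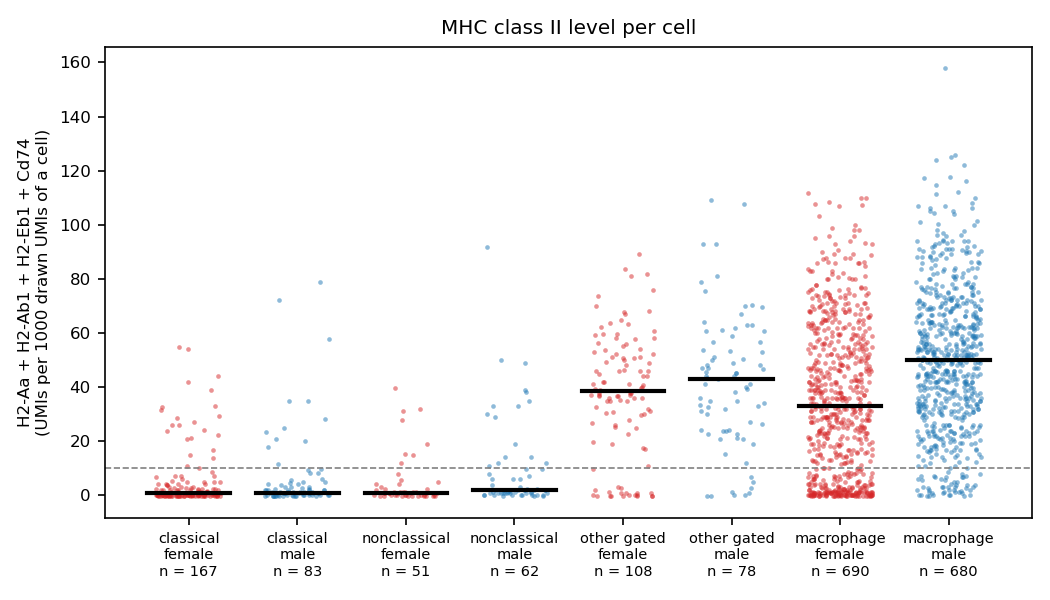
Each point is a cell, with its Cd74, H2-Eb1, H2-Ab1 and H2-Aa UMIs among 1000 drawn UMIs on the y axis, black lines are medians and the dashed line marks 10. Classical and nonclassical cells lie mostly at the bottom (medians 1 or 2) with a tail above the line, and the other gated cells and macrophages lie mostly above it.

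The members above 10 differed from the rest in other genes. Cd209a (a C-type lectin of monocyte-derived dendritic cells) had 24 UMIs in the 22 female cells above and 7 in the 145 below, a ratio of 16.7 [6.99, 46.0], and 13 and 1 UMIs in the 12 and 71 male cells, but the 13 lay in 2 cells and the 24 in 5. Several genes of the dendritic cell type list did not follow it in both libraries. Cbfa2t3 stood at 1.13 and 0.889, Klrd1 at 1.501 and 0.469, Dpp4 at 0.976 and 1.41 and Flt3 at 0.305 and 1.41. All had intervals that included 1, and Clec9a and Ccr7 had no UMI. Clec10a (4.07 [1.57, 10.3] and 3.52 [0.849, 13.8]) and Tmem176a (2.83 [1.90, 4.18] and 3.17 [1.90, 5.21]) were above 1 in both libraries. Tmem176b was 3.03-fold [2.26, 4.05] and 4.30-fold [2.89, 6.41] higher above 10, and Ciita (the regulator of the MHC class II genes) 7.32-fold and 5.07-fold. The mannose receptor Mrc1 was 8.13-fold and 11.3-fold higher on 24 and 11 UMIs in all. Its 15 female UMIs above 10 lay in 3 cells and its 8 male ones in 6. Apoe, the lipid carrier of many macrophages, was 1.91-fold and 4.05-fold. Several markers of the classical kind were lower above 10, with Plac8 at 0.407 and 0.53, Fn1 at 0.43 and 0.325, and Hp at 0.0952 and 0.314. Chil3 and Ly6c2 were lower too (0.527 and 0.383, 0.509 and 0.578), and Mmp8 had no UMI above 10 in either library. Ccr2 was not lower (1.79 and 1.29), and the intervals of Ms4a4c included 1 (0.939 [0.718, 1.21] and 0.886 [0.577, 1.32]). F13a1 was at 0.513 [0.347, 0.735] in the female and 0.962 [0.650, 1.39] in the male library. Cells above 10 were deeper (median 4956.5 against 3358 UMIs and 5211 against 3592 UMIs), and the part of doublets and of depth in these differences was not tested.

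Between the libraries, 28 of 2820 genes with 50 or more UMIs in the members were 2-fold or more higher in the female one (0.993%). Another 30 had a female to male ratio of 0.5 or less (1.06%), and the median log2 ratio was -0.02. With equal weight per cell the counts were 50 and 47, and 16 genes were 2-fold or more higher in the female library with members holding a C1q UMI left out and also with cells holding UMIs of other lineages left out. The levels of the rule genes are set in part by the rule. Chil3 was at 1944 CPM [1839, 2054] and 2135 CPM [1981, 2296], Ly6c2 at 1554 and 1779 CPM, F13a1 at 538 and 578 CPM, and Vcan at 32.1 and 74.1 CPM (ratio 0.433 [0.231, 0.806]). Of 17 classical monocyte genes outside the rule with enough UMIs, 6 had an interval above 1 and 3 below 1, with a median log2 ratio of 0.20, beside 160 above and 189 below among all 2820 genes. The counts were 3 and 3 with the highest doublet scores removed, 3 and 3 with the classical sum at least 3 times the nonclassical, and 3 and 2 without the 4 members with endothelial UMIs. Fn1 had a female to male ratio of 0.755 [0.68, 0.839], Ccr2 of 0.854 [0.764, 0.954] and Plac8 of 1.15 [1.08, 1.22].

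Immediate early genes, which are induced within minutes by stimulation and also by tissue digestion, mostly had lower levels in the female members. Fos was at 919 CPM [847, 996] female and 1453 CPM [1327, 1587] male, Junb at 474 and 783 CPM, and Nr4a1 at 294 and 451 CPM. Of the 14 genes of the list with enough UMIs, 11 had a ratio under 1 and 8 an interval below 1, with none at 0.5 or less and a median log2 ratio of -0.46. The interval count was 4 of 11 at the 1.2% ceiling, 5 of 12 with no C1q UMI and 5 of 13 with the 3-fold sum, and the median was -0.26 with cells holding UMIs of other lineages left out. Over all 2820 genes 1468 had a ratio under 1 and 189 an interval below 1. In nonclassical cells of the same libraries 3 of 11 had a ratio under 1 (median 0.22), beside 530 of 1074 genes overall. In macrophages it was 11 of 15 (median -0.25), beside 4573 of 8180, and in B cells 7 of 12 (median -0.04), beside 2590 of 5113. Ier2 (1.32), Egr1 (1.21) and Btg2 (1.13) were the members of the list above 1 in classical cells.

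Glucocorticoid response genes, of interest in the gland that makes the hormone, went in both directions. Ddit4, an inhibitor of mTORC1, was at 97.9 CPM [75.4, 125] in female and 32.6 CPM [16.3, 58.4] in male members (64 and 11 UMIs), a ratio of 3.00 [1.57, 6.31], and 2.25 in nonclassical cells and 2.50 in macrophages. Fkbp5, a co-chaperone of the glucocorticoid receptor, was at 64.2 and 29.6 CPM (ratio 2.17 [1.07, 4.84]), and Tsc22d3, which encodes GILZ, at 590 and 362 CPM (1.63 [1.33, 2.02]). The metallothionein Mt1 was at 45.9 and 119 CPM (0.387 [0.233, 0.637]). The list as a whole had 4 of 9 genes above 1 and a median of -0.30, beside 1352 of 2820 genes overall. Dusp1 and Zfp36 are in this list and also in that of immediate early genes. In nonclassical cells 4 of 5 were above 1 (median 0.58), beside 544 of 1074 genes overall. In macrophages it was 9 of 14 (median 0.47), beside 3607 of 8180, and in B cells 4 of 7 (median 0.08), beside 2523 of 5113. The span of Fkbp5 overlaps other annotated genes on its strand.

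**Figure D5:**
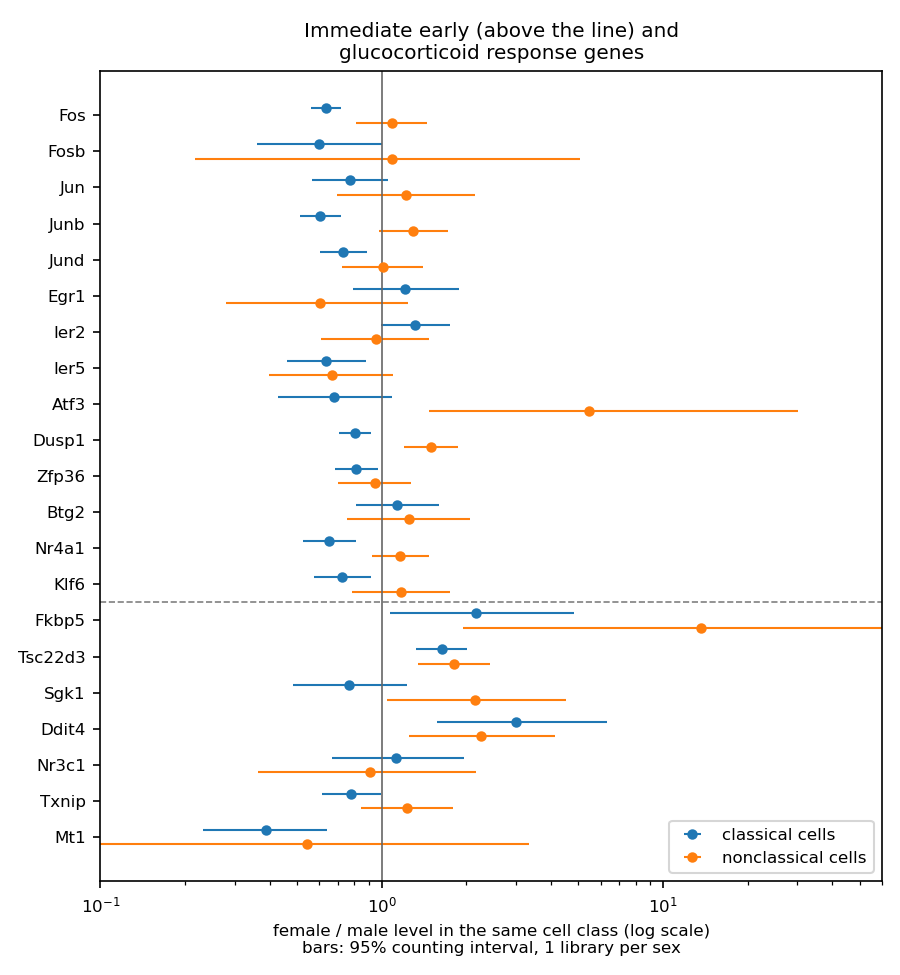
The x axis (log scale) is the female over male level in classical (blue) and nonclassical (orange) cells for immediate early genes (above the dashed line) and glucocorticoid response genes (below it) with enough UMIs in classical cells, bars being 95% counting intervals, 2 of which run past the frame (Fkbp5 and Mt1 in nonclassical cells). Genes in both lists are drawn above the line. Most blue points of the upper group lie left of 1 (11 of 14), and Fkbp5, Tsc22d3 and Ddit4 lie right of 1 in both kinds.

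The other genes named by rank were Ap1s2 (an adaptor protein subunit, 381 and 187 CPM, ratio 2.04), Ifi209 (an interferon-inducible protein, 268 and 130 CPM, 2.05), the sterol synthesis enzyme Cyp51 and the receptor Lilra6 (both 67.3 and 20.8 CPM, 3.24), Clec4e (Mincle, a receptor for mycobacterial glycolipid, 112 and 44.5 CPM, 2.51), and Srgn (serglycin, a proteoglycan of secretory granules, 760 and 462 CPM, 1.64). Ap1s2 and Srgn were also higher in the female macrophages (2.02 and 1.28). Igkc, an immunoglobulin light chain that B cells make, had 60 and 11 UMIs in the members (2.81) and a ratio of 2.04 in macrophages, and B cells were 13.5% of the female and 10.2% of the male filtered barcodes.

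Lower in the female members were Gm42418 (3492 and 6531 CPM, 0.535), AY036118 (0.568) and Lars2 (mitochondrial leucyl-tRNA synthetase, 0.471). Gm42418 and AY036118 lie over ribosomal RNA sequence. All 3 were also lower in the female macrophages (0.628, 0.697 and 0.578) and B cells (0.67, 0.756 and 0.621). Rpl9-ps6, a pseudogene that shares sequence with Rpl9 (0.544), Cops6 of the COP9 signalosome (0.423) and Gm34084 (0.478) completed the list together with Fos and Junb.

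Of 20 inflammatory mediators 6 had 50 or more UMIs in the members. Of these, 3 had a female to male ratio above 1 and 3 below, with a median log2 ratio of -0.09. At 0.5 or less there was 1, Il1b, against 1.06% of all genes. Il1b had 26 female and 48 male UMIs (39.8 CPM [26.0, 58.3] and 142 CPM [105, 189], ratio 0.279). Cd14, which belongs to the list of receptors for microbial products and antibodies and not to these mediators, had 26 and 29 UMIs (0.463). Of its male UMIs, 18 lay in 3 of the 12 male members above the MHC class II cutoff given earlier. In the 145 female and 71 male members not above it, Cd14 stood at 37.1 and 40.6 CPM. Of the 9 genes of that receptor list with enough UMIs, 6 had a ratio above 1 and 3 below (median log2 ratio 0.215). Cd14 was the only 1 at 0.5 or less. Ccl6 and Ccl9, chemokines made constitutively by myeloid cells, were at 1100 and 1032 CPM and at 665 and 658 CPM. Il6 and Ccl7 had no UMI in either library.

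MHC class II genes had female to male ratios below 1 in 5 of 6 genes with enough UMIs (H2-Aa 0.801 [0.718, 0.895], Cd74 0.84 [0.783, 0.901]), with a median log2 ratio of -0.24, beside 1468 among all 2820 genes, and 4 had an interval below 1, or 1 without the 4 members with endothelial UMIs. In nonclassical cells all 6 were below 1 (median -1.29). The direction turned with a few cells: with the highest doublet scores removed (2 female and 5 male members) 5 of 6 were above 1 (median 0.06), and with members holding any C1q UMI left out all 6 were below 1 (median -1.03). In macrophages all 9 genes were below 1 (median -0.63).

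Without the 4 members with endothelial UMIs the genes with a female to male ratio of 0.5 or less were 25 in place of 30. The values of Fabp4, Ly6a and Ly6c1 also rested on those cells. Fabp4, a fatty acid carrier, had 35 female and 66 male UMIs, 78.8% of the male ones in 3 cells, and its female to male ratio was 0.274 with those cells and 1.04 without. Ly6a (Sca-1) had a ratio of 0.387 with them and 0.844 without. Ly6c1 had 97.3% of its male UMIs in the 3 cells, and Ly6c2 had 0.5% of them there. Ly6c2 and Ly6c1 share 75 of 446 windows of 55 bases, the read length, at the end of their transcripts (16.8%), and Chil3 shares 72 of 446 with Chil4 (16.1%), so reads of those stretches cannot be assigned to 1 of the pair.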

How the data were processed

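Raw UMI counts per gene and barcode, deposited by the authors for 1 female and 1 male library, were made with Cell Ranger 4.0.0 on mm10, per the submitters' processing notes. Barcodes of low quality had been removed by the authors with DropletUtils. The annotation used for counting is not given in the sources used here. Libraries held 16218309 (female, 3963 barcodes) and 9512670 UMIs (male, 2685 barcodes). After the filters (9 and 13 barcodes under 200 genes, 140 and 175 over 15% mitochondrial UMIs, some in both), the counts of each class were added up gene by gene and scaled to the class total (CPM). Ratios carry exact conditional binomial intervals, levels exact Poisson, shares Clopper-Pearson and their differences Newcombe intervals. Genes needed 50 UMIs. A ratio of 2 or 0.5 was the threshold. Doublets were not removed; Scrublet's automatic threshold marked 2 and 10 barcodes, so an alternative removed the 126 and 58 highest scores. Named genes outside the lists were the 8 highest and 8 lowest female to male ratios by the interval bound nearest 1 (UMIs in 10 or more cells of the higher library, at most 50% in its top 5 cells), and the 10 highest and 10 lowest classical to nonclassical ratios. The members and the lists were chosen with earlier results of these data known. Of the 353 genes described, all had a position in GENCODE M21. Some genes that the ranking or the lists hold are not reported here. Python 3.11.15, numpy 2.4.6, scipy 1.17.1, pandas 2.3.3 and scanpy 1.11.5 were used, and scripts were tested on simulated data.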

Additional observations from a re-analysis of the deposited data

Results flagged for a closer look

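For 9 genes the female to male ratio lay on opposite sides of 1 in classical and nonclassical cells, with both counting intervals off 1; the difference was not tested, as each sex is 1 library. They were among 134 described genes with enough UMIs in both kinds, and 32 of 2380 genes overall met the same criterion (1.34%). Ratios are given for classical, then nonclassical cells. Icam1, the endothelial and leukocyte ligand of LFA-1, stood at 0.568 [0.336, 0.963] and 2.48 [1.13, 5.72]. It had 33 female and 30 male UMIs in classical cells, and 20 and 11 in nonclassical cells. The phosphatase Dusp1 stood at 0.805 and 1.5 and the transcription factor Cebpb at 0.884 and 1.33. Klf2, a factor of leukocyte quiescence and trafficking, stood at 0.792 and 1.29. The opposite order was seen for Ifi27l2a, an interferon-stimulated gene (1.45 and 0.723), S100a10 (1.19 and 0.382) and Wfdc17 (1.21 and 0.469). Fabp4 stood at 0.274 and 2.09 and Ly6a at 0.387 and 2.16. Without the cells holding 3 or more endothelial UMIs, Fabp4, Ly6a and Klf2 no longer met this criterion, and the other 6 did. With a mitochondrial ceiling of 5% Dusp1, Icam1 and Klf2 did not meet it, with the highest doublet scores removed S100a10 did not, and with cells holding UMIs of other lineages left out S100a10, Fabp4, Ly6a and Klf2 did not. With members and nonclassical cells limited to those with no C1q UMI, Fabp4 and Ifi27l2a met it and the other 7 did not.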

How the results depend on the processing

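A mitochondrial ceiling of 1.2%, a value that the study's methods name, left 327 female and 359 male barcodes here, so it may not be the same cut. It moved 10 of the main results and not 4 others. Among single genes, 57 female to male ratios moved and 100 did not. Of the classical to nonclassical ratios 125 moved, 4 reversed and 104 did neither. The classical share was 21.1% female and 13.6% male (7.45 points apart), and the classical share of both kinds 87.3% and 81.7% (5.68 points). The female to male counts were 8 and 10, and the classical to nonclassical counts 14 and 7. Under the 1.2% ceiling Tspan13 (1.03), H2-DMa (0.973) and Anxa2 (0.997) in the female library and Anxa1 (0.987) in the male reversed their classical to nonclassical order, on 3 to 16 nonclassical UMIs. A ceiling of 5% gave a female share of 5.28% and 32 genes at 0.5 or less in classical cells. Members with no C1q UMI were 2.96% and 1.96% of barcodes, with 16 genes 2-fold higher in the female library, 23 and 24 genes past the threshold between the kinds, and 8.18% of female members above 10 MHC class II UMIs per 1000. A classical sum of 4 or more gave a female share of 3.75%. Leaving out cells with UMIs of other lineages gave 3.54% and 16 genes 2-fold higher in the female library, and turned Ly6a to 1.36 (female to male) and 1.29 (classical to nonclassical, female). Leaving out cells with endothelial UMIs, chosen after seeing the data, turned Fabp4 to 1.04. A minimum of 200 UMIs gave 3 and 1 genes between the libraries and 14 and 6 between the kinds, since fewer genes were counted. Equal weight per cell gave 50 and 47 between the libraries. With no draw the female MHC class II median was 0.882. Other causes were not tested. Requiring the classical sum to be 3 times the nonclassical, removing the highest doublet scores or dropping the floor on the nonclassical sum moved these shares within their intervals and the counts of genes at 2 or 0.5 by less than 1.5 times (shares of 3.98% and 2.92% and 59 genes at 0.5 or less for the first, 67.2% and 53.1% of both kinds for the last). Immediate early genes were below 1 in 9 of 12 with no C1q UMI, 10 of 11 at the 1.2% ceiling, 10 of 13 with the 3-fold sum or other lineages out, and 11 of 14 in the others run for the lists; whether these are the same genes was not counted. Their intervals below 1 went from 8 to between 4 and 9 where intervals were made, and the MHC class II direction turned with the highest doublet scores removed. No paired analysis was possible because each sex is 1 library, and no replicate could be left out. Counts of single UMIs limit the rare genes.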

Other observations

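Cell cycle genes were sparse in the members, and no share of cycling cells was estimated. Stmn1 (stathmin, a microtubule regulator of dividing cells) had 33 UMIs in 2.91% of the female members and none in the male, Top2a 14 and 4, and Mki67 4 and 1, and only Tubb5, Hmgb2 and Pcna of the 17 cell cycle genes had 50 UMIs in the members. These 3 had female to male ratios of 1.53 [1.09, 2.16], 1.18 [0.964, 1.45] and 1.09 [0.717, 1.69].

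Receptors for microbial products and antibodies were read at moderate levels. Fcer1g, the signalling chain of Fc receptors, was at 2435 and 2268 CPM in female and male classical cells and at 2750 and 2296 CPM in nonclassical cells. The high-affinity IgG receptor Fcgr1 was at 147 and 97.8 CPM against 35.1 and 30.9 CPM, and the scavenger receptor Msr1 at 124 and 107 CPM against 21.05 and 46.3 CPM. Tlr13, a receptor for bacterial RNA, was at 102 and 56.3 CPM against 175 and 124 CPM.

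Of 22 macrophage genes 8 had 50 UMIs in the members. Cd68 was at 277 and 255 CPM, Aif1 at 381 and 421 CPM, Ctsd at 197 and 199 CPM, Adgre1 (F4/80) at 104 and 110 CPM and Axl at 73.4 and 86.0 CPM, and Trem2 had 27 and 27 UMIs. Apoe was at 2505 CPM [2385, 2630] female and 3540 CPM [3342, 3746] male. After the draw to 1000 UMIs Apoe had a UMI in 67.7% and 56.6% of the members and in 25.7% and 28.0% of B cells. Among the sparse ones, Mertk had 3 and 3 UMIs, Lyve1 2 and 0, Timd4 1 and 0, and Folr2 0 and 1.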
